A study of Mus musculus with 6 samples.

Results

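The 50 genes described here encode the DNA replication fork, the enzymes that supply its nucleotides, and the recombination, mismatch repair and checkpoint proteins that act when forks stall or DNA breaks. They were chosen by name and role and were found on the array as the 75 probes whose transcript accession maps to these genes, out of 56605 probes that carried 23462 gene symbols. The samples were TM3 cells, a mouse line derived from testicular Leydig cells, kept for 24 h with 0 µM (control, 3 samples) or 10 µM (3 samples) 4-nitrophenol (PNP, named nPNP in the sample descriptions), a nitrated phenol formed from organophosphate pesticides. No other treatment or genetic change is named for either group. Each sample had its own 1-colour Agilent array. Whether the 3 samples per group were separate cultures is not stated, and p-values therefore reflect sample-to-sample scatter that could be purely technical.

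Replication starts where the origin recognition complex marks DNA, and the helicase loaded there is switched on by Cdc45, the GINS complex and Mcm10. Polymerase alpha with its primase lays primers, polymerases delta and epsilon extend them while held by the sliding clamp, and Okazaki fragments are then trimmed and joined. Ribonucleotide reductase and thymidylate synthase supply the deoxynucleotides, and the kinases Atr and Chek1 slow the cell cycle when a fork stalls. Many of these genes are known targets of E2F factors, and their transcripts are most abundant in dividing cells as they enter S phase.

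The promoters were read from a RefSeq table of build GRCm38.p6, which held a window from 250 bases before to 50 bases after the transcription start for 41 of the 50 genes. A search on both strands for the E2F-type letters TTTCCCGC, TTTGGCGC and TTTCGCGC found a match in 11 of the 41 genes (26.8%), against 2.12% of the 27025 genes in that table. The genes with a match were Pola1, Pold1, Pold3, Pole2, Rfc3, Lig1, Gins3, Orc3, Brca2, Msh6 and Chek2. The shorter CCAAT letters were found in 56.1% of the 41 genes and 41.1% of all genes, and the GC box letters GGGCGG in 70.7% and 38.2%. A match describes letters and is not a measured binding site. Shown here, 5′ to 3′ on the strand of the gene and with the match in capitals, are 4 stretches that lie mostly before the start, because they show such a match in genes of 4 different roles. They are Pola1 at chrX:93632226-93632353 (minus strand), Gins3 at chr8:95633458-95633585 (plus strand), Orc3 at chr4:34614916-34615043 (minus strand) and Chek2 at chr5:110839771-110839898 (plus strand).
Pola1: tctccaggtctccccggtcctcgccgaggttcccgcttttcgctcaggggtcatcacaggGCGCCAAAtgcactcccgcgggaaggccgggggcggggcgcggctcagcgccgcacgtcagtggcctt
Gins3: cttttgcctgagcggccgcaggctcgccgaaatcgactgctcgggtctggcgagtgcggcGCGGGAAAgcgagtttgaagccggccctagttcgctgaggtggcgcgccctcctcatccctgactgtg
Orc3: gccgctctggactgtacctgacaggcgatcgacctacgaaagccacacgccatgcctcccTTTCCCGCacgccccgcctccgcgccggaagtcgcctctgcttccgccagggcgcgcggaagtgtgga
Chek2: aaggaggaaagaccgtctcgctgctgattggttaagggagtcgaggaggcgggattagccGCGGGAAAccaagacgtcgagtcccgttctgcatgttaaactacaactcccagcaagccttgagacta

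All 6 arrays lay on 1 slide and were read in 1 scan. The 3 control arrays filled row 1 in columns 1, 2 and 3, PNP 1 lay in row 1 and column 4, and PNP 2 and PNP 3 lay in row 2 in columns 1 and 2. Odd columns thus held control 1, control 3 and PNP 2, and even columns held control 2, PNP 1 and PNP 3. Row 2 held PNP arrays alone, so row and treatment cannot be told apart there. The share of spots that the scanner software marked as outliers was 7.75% ± 1.27 (SD, n = 3) on control and 12.3% ± 0.814 (SD, n = 3) on PNP arrays, and the array's 75th percentile signal was 5571 ± 218 (SD, n = 3) and 4941 ± 400 (SD, n = 3). Both measures separated the groups fully, at p = 0.1 in an exact two-sided permutation test, the smallest that 3 against 3 arrays allow. Among markers of Leydig cells, Star and Nr5a1 were well above background on all 6 arrays, and Cyp11a1, Hsd17b3, Hsd3b6 and Lhcgr on none. Their summed level, over the 8 markers with a named probe, ranged from -1.42 to -1.34 on control and from -1.41 to -1.09 on PNP arrays. Of 6 endothelial markers, Cdh5, Kdr, Tek and Emcn were above background on no array and none was on all 6. Of 9 macrophage and leukocyte markers, Ptprc, Adgre1 and Mrc1 were above background on no array and the other 6 (Cd14, Cd3e, Cd68, Csf1r, Itgam and Lyz1) on all 6, as were 6 of 9 Sertoli cell, 5 of 10 germ cell and 6 of 6 peritubular myoid markers. The summed level of the macrophage list ranged from 3.96 to 4.10 on control and from 4.02 to 4.25 on PNP arrays, and that of the myoid list from 4.50 to 4.61 and from 4.65 to 4.74. The part of these markers in the results below was not tested.

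All 75 probes of the 50 genes were well above background on all 6 arrays, so TM3 cells expressed the whole set in both groups. Values below are scaled log2 signals, the log2 of the processed signal minus the array's 75th percentile, so a value of 0 sits at that percentile and levels of different genes cannot be compared. Spots marked as outliers were left out, and 42 of the 50 genes kept the 2 arrays per group needed for a test, each through its brightest tested probe. The other 8 genes (Pole2, Pcna, Rpa1, Rpa2, Rpa3, Dna2, Gins3 and Dut) dropped out through outlier marks alone and are described with all spots kept. The marks fell unevenly: 12, 9 and 10 of the 75 probes carried one on controls 1, 2 and 3, and 19, 26 and 26 on PNP 1, 2 and 3.

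No gene of the set passed the test between PNP and control. The count was 0 of 42 at an adjusted p below 0.05 (limma, Benjamini-Hochberg over 13138 genes), and it was 0% of all genes. At an unadjusted p below 0.05, Xrcc2 and Brca1 were lower with PNP and Fanca was higher, which makes 2 of 42 lower against 1.49% of all genes and 1 of 42 higher against 5.02%. PNP values lay wholly below control values in 4 genes (3.75% of all genes) and wholly above them in 1 gene (9.66% of all genes). The difference was negative in 35 of the 42 genes, with a median of -0.07, against 37.0% of all genes and a median of 0.04. On arrays scaled on their medians the corresponding values were 41 of 42 genes and 55.8% of all genes, and after normexp background correction 25 of 42 genes and 32.5%. The 95% interval lay within 1.5-fold either way for 37 of the 42 genes and within 2-fold for all 42. The 5 genes whose interval reached past 1.5-fold were Pola1, Brca1, Xrcc2, Fancd2 and Exo1.

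**Figure D1:**
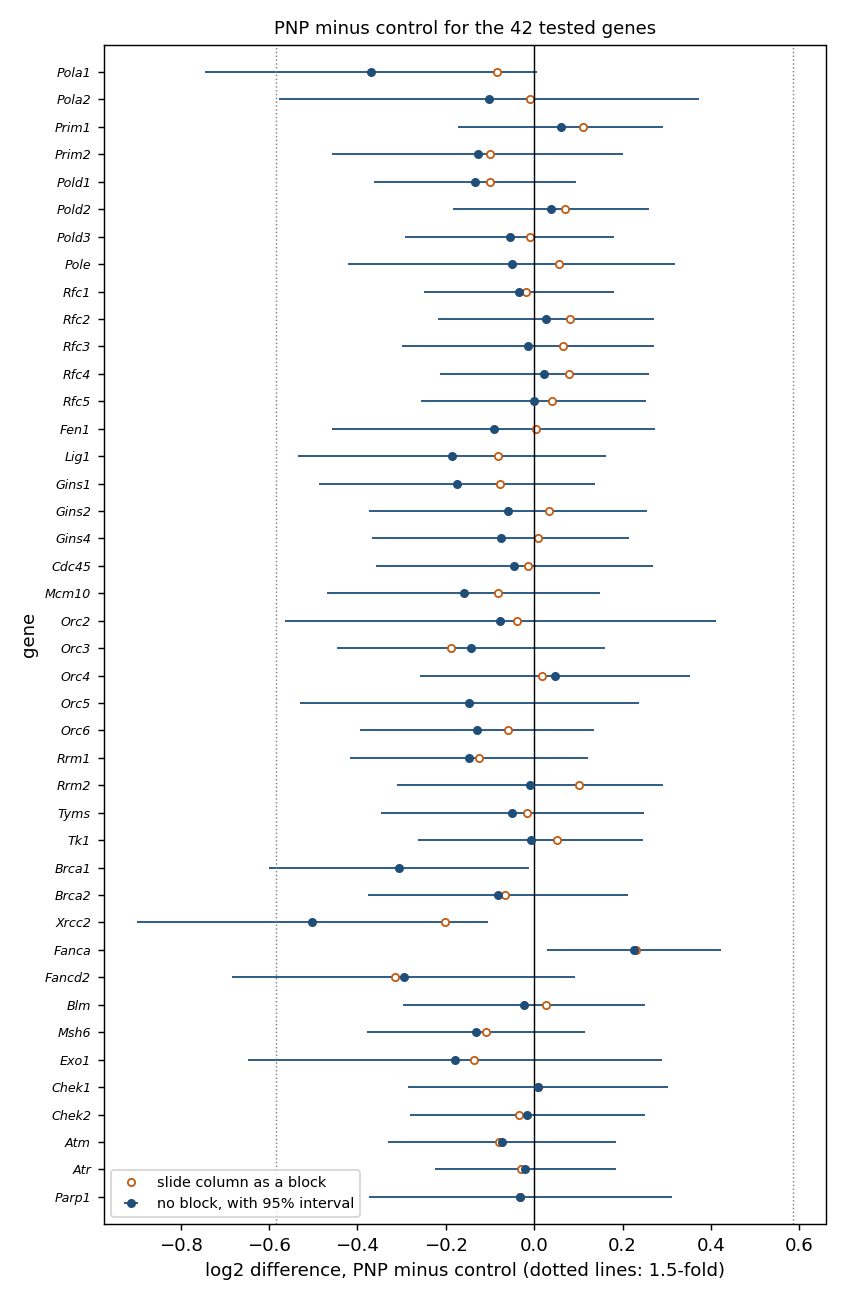
Log2 difference, PNP minus control, for the 42 tested genes, with filled points and 95% intervals from the fit without a block and open points from the fit that blocks on odd or even slide column; dotted lines mark 1.5-fold. Most filled points lie left of 0, Xrcc2 lies farthest left at -0.50, and Brca1 and Orc5 have no open point because the block could not be fitted to their arrays.

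The 4 genes whose PNP values lay wholly below control were Pola1, Orc3, Brca1 and Xrcc2, and in all 4 the spot of PNP 2 was marked as an outlier and left out. PNP 2 was the highest of the 6 arrays in 24 of the 50 genes when all spots were kept, and PNP 3 was the lowest in 25 and PNP 1 in 14. How often each array was the extreme over all genes was not counted. The median SD over all tested genes was 0.105 on control and 0.148 on PNP arrays. With all spots kept and each gene read through its brightest probe, 0 of the 50 genes had PNP values wholly below control (2.91% of all genes). The count wholly above was also 0 (8.07% of all genes). Orc3 left the count because a brighter probe then stood for it. Its tested probe still had all PNP values below control, with -0.75 on PNP 2 and -0.71 on control 3, the lowest control. Without PNP 2, 9 of the 42 genes had an unadjusted p below 0.05 (limma) and a negative difference, against 4.78% of all genes. Exo1 lay farthest at -0.52 but then rested on PNP 1 alone, and Prim2, also among the 9, on PNP 3 alone. Pola1, Brca1 and Xrcc2 were among the 9 too and already lacked PNP 2. The PNP arrays left both lay in even columns, while controls 1 and 3 lay in odd ones. Treatment and column were thus partly mixed in this fit. On all arrays 2 genes of the set were lower at an unadjusted p below 0.05 (limma). Their count became 0 without control 3, 0 without PNP 1, 0 without PNP 3, 1 without control 1 and 3 without control 2. Over all genes the counts were, in that order, 122, 227, 177, 129 and 244, against 196 on all arrays (1.49%). Whether the outlier marks or the slide position account for the difference of PNP 2 from the other PNP arrays was not tested.

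Polymerase alpha and primase start each new strand. The tested probe of Pola1, the catalytic subunit, gave -1.26, -1.66 and -1.20 on controls 1, 2 and 3 and -1.68 and -1.80 on PNP 1 and PNP 3. Controls 1 and 3 were the high arrays, and control 2 lay close to PNP 1. The difference was -0.37 (SE 0.16, adjusted p = 0.766, limma), and with slide column as a block it was -0.08 (SE 0.15). The brighter second probe of Pola1, left out for outlier marks, gave 1.53, 1.18 and 1.20 on the controls and 0.92, 1.43 and 0.98 on PNP 1, 2 and 3. On that probe PNP 2 stood among the controls and the groups overlapped. Prim2, the large primase subunit, gave 1.28, 1.27 and 1.25 on the controls and 1.34 and 0.94 on PNP 2 and PNP 3, with PNP 1 left out. The controls agreed closely and the PNP arrays lay on either side of them, for a difference of -0.13 (SE 0.14, adjusted p = 0.946, limma). With the marked spot of PNP 1 kept, at 0.91 below all controls, the difference was -0.21 (SE 0.13). Pola2, the regulatory subunit, was the most scattered of the group, from -0.78 on PNP 2 to -1.70 on PNP 3, and the catalytic primase Prim1 had a difference of 0.06 (SE 0.10).

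Polymerases delta and epsilon copy the lagging and leading strands. Pold1, the catalytic subunit of delta, gave 1.90, 1.83 and 1.78 on the controls and 1.67, 1.83 and 1.61 on PNP 1, 2 and 3. PNP 1 and PNP 3 were the lowest arrays and PNP 2 lay inside the control range, and the difference was -0.13 (SE 0.10, adjusted p = 0.902, limma). Pold3, an accessory subunit of delta, gave 1.15, 1.10 and 1.11 on the controls and 1.00, 1.23 and 0.96 on the PNP arrays. The controls lay between PNP 2 above and the other PNP arrays below, for a difference of -0.06 (SE 0.10). Pole, the catalytic subunit of epsilon, had a wider spread: 1.21, 1.09 and 1.14 on the controls and 0.82, 1.47 and 1.01 on the PNP arrays. Its PNP values spanned the controls on both sides, with an SD of 0.33 against 0.06 over 3 arrays each, and its difference was -0.05 (SE 0.16). Pold2 had a difference of 0.04 (SE 0.10), and Pole2, with all spots kept, one of -0.12 (SE 0.17).

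Replication factor C loads the ring-shaped clamp Pcna, which tethers polymerases to DNA. Rfc1, the large subunit, gave 1.84 on each control and 1.86, 1.87 and 1.69 on PNP 1, 2 and 3. The low value of PNP 3 alone gave the difference of -0.03 (SE 0.09, adjusted p = 0.967, limma). Rfc2 gave 1.94, 1.84 and 1.97 on the controls and 1.95, 2.09 and 1.80 on the PNP arrays, which overlapped, with a difference of 0.03 (SE 0.11). Over the 5 tested subunits the differences ran from -0.03 to 0.03. Pcna itself, read with all spots kept, gave 3.38, 3.08 and 3.27 on the controls and 3.18, 3.38 and 3.08 on the PNP arrays. Its 3 odd-column arrays were its 3 highest, and its PNP difference was -0.03 (SE 0.12, adjusted p = 0.974, limma).

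Replication protein A coats single-stranded DNA at the fork, and none of its 3 subunits could be tested. With all spots kept, the differences were 0.10 (SE 0.15) for Rpa1, -0.14 (SE 0.18) for Rpa2 and -0.21 (SE 0.11) for Rpa3. Of the enzymes that finish Okazaki fragments, the ligase Lig1 gave 1.59, 1.15 and 1.57 on the controls and 1.33, 1.38 and 1.04 on PNP 1, 2 and 3. Control 2 sat with the PNP arrays, and the difference was -0.19 (SE 0.15, adjusted p = 0.916, limma). The brighter probe of Lig1, left out for outlier marks, had a difference of -0.05 (SE 0.10) with all spots kept. The flap endonuclease Fen1 had a difference of -0.09 (SE 0.16), and the nuclease and helicase Dna2, with all spots kept, one of -0.18 (SE 0.19).

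The GINS complex, Cdc45 and Mcm10 turn the loaded helicase into an active one, and all 5 tested genes of this group had a negative difference. Gins1 gave 1.21, 1.01 and 1.30 on the controls and 0.98, 1.23 and 0.80 on PNP 1, 2 and 3. PNP 2 was in the control range and control 2 near PNP 1, and the difference was -0.18 (SE 0.14, adjusted p = 0.910, limma). Mcm10, which binds the helicase and polymerase alpha, gave 0.96, 0.97 and 1.06 on the controls and 0.77, 1.11 and 0.62 on the PNP arrays. The groups overlapped through PNP 2 alone, for a difference of -0.16 (SE 0.13, adjusted p = 0.921, limma). Gins2, Gins4 and Cdc45 had differences of -0.06, -0.08 and -0.05. With all spots kept, a brighter probe stood for Gins2 and for Gins4, and their differences were 0.0044 (SE 0.12) and 0.07 (SE 0.10). That of Cdc45 was then -0.13 (SE 0.13). Gins3, read with all spots kept, gave 2.91, 2.82 and 3.06 on the controls and 3.33, 3.05 and 3.27 on the PNP arrays, a difference of 0.29 (SE 0.12, adjusted p = 0.836, limma). Its PNP 2 lay just under control 3, so the groups overlapped slightly.

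Among the origin recognition subunits, Orc6 gave 2.64, 2.36 and 2.51 on the controls and 2.37, 2.51 and 2.24 on PNP 1, 2 and 3. The groups overlapped, with a difference of -0.13 (SE 0.12, adjusted p = 0.927, limma). Orc3 kept only controls 2 and 3, at -0.62 and -0.71, and PNP 1 and PNP 3, at -0.85 and -0.76. These few values did not overlap, and the difference was -0.14 (SE 0.12, adjusted p = 0.927, limma). The brightest of the 3 probes of Orc3, with all spots kept, had a difference of -0.01 (SE 0.12), and its groups overlapped. The remaining probe, also left out for outlier marks, had one of -0.24, and the tested probe one of -0.13 with all spots kept. On each of these latter probes all PNP values lay below control. Orc2 had a difference of -0.08 (SE 0.21), Orc4 one of 0.05 (SE 0.13) and Orc5 one of -0.15 (SE 0.16). With all spots kept, they were -0.12 (SE 0.11, on a brighter probe), 0.05 (SE 0.11) and -0.19 (SE 0.12).

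Ribonucleotide reductase makes deoxynucleotides from ribonucleotides through a large subunit, Rrm1, and a small one, Rrm2. Rrm1 gave 2.87, 2.69 and 2.78 on the controls and 2.70 and 2.56 on PNP 2 and PNP 3, with a difference of -0.15 (SE 0.11, adjusted p = 0.911, limma). PNP 2 lay just above control 2, so the groups overlapped. Rrm2 gave 2.43, 2.33 and 2.56 on the controls and 2.54 and 2.32 on PNP 1 and PNP 3. Both groups covered nearly the same range, and the difference was -0.01 (SE 0.13, adjusted p = 0.997, limma). Tyms, thymidylate synthase, gave 2.60, 2.46 and 2.70 on the controls and 2.43 and 2.64 on PNP 1 and PNP 2, a difference of -0.05 (SE 0.13, adjusted p = 0.966, limma). PNP 2 lay among the controls and PNP 1 just below them. With all spots kept, a brighter probe stood for Tyms, with PNP 1 and PNP 3 below all controls and a difference of -0.16 (SE 0.13). The differences of Rrm1 and Rrm2 were then -0.08 (SE 0.11) and 0.06 (SE 0.12). The thymidine kinase Tk1 had a difference of -0.01 (SE 0.11), and Dut, which removes dUTP, one of 0.07 (SE 0.13) with all spots kept.

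The 3 genes with an unadjusted p below 0.05 all belong to recombination and crosslink repair. Xrcc2, which acts in homologous recombination, gave -2.00, -2.34 and -1.79 on the controls and -2.56 and -2.53 on PNP 1 and PNP 3. The PNP arrays agreed closely and lay under all controls, and the difference was -0.50 (SE 0.17, adjusted p = 0.740, limma), or 0.706-fold. With the marked spot of PNP 2 kept, at -1.76 the highest of the 6 values, the difference was -0.24 (SE 0.23), and with slide column as a block it was -0.20 (SE 0.16). Brca1, which directs broken ends to recombination, gave 1.14 and 1.19 on controls 1 and 3 and 0.89 and 0.83 on PNP 1 and PNP 3, with the other arrays left out. Its difference was -0.31 (SE 0.12, adjusted p = 0.749, limma), or 0.809-fold, but both controls lay in odd columns and both PNP arrays in even ones, so treatment and column cannot be told apart. With the marked spots kept, at 1.09 on control 2 and 1.23 on PNP 2, the difference was -0.15 (SE 0.12), and a dimmer second probe of Brca1 had one of 0.30.

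Fanca, of the Fanconi core complex, gave -1.52, -1.53 and -1.54 on the controls and -1.35, -1.29 and -1.29 on PNP 1, 2 and 3. It was the only tested gene of the set whose PNP values all lay above control, with a difference of 0.23 (SE 0.09, adjusted p = 0.740, limma) that was 0.22 within even and 0.24 within odd columns. The brightest of its 3 probes, left out for outlier marks, gave a difference of -0.20 (SE 0.15) with all spots kept, and the dimmest gave -0.16, so the probes of Fanca did not share a direction. Fancd2, the protein that the core complex modifies, had a difference of -0.29 (SE 0.16), Brca2 one of -0.08 (SE 0.13) and the helicase Blm one of -0.02 (SE 0.12).

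**Figure D2:**
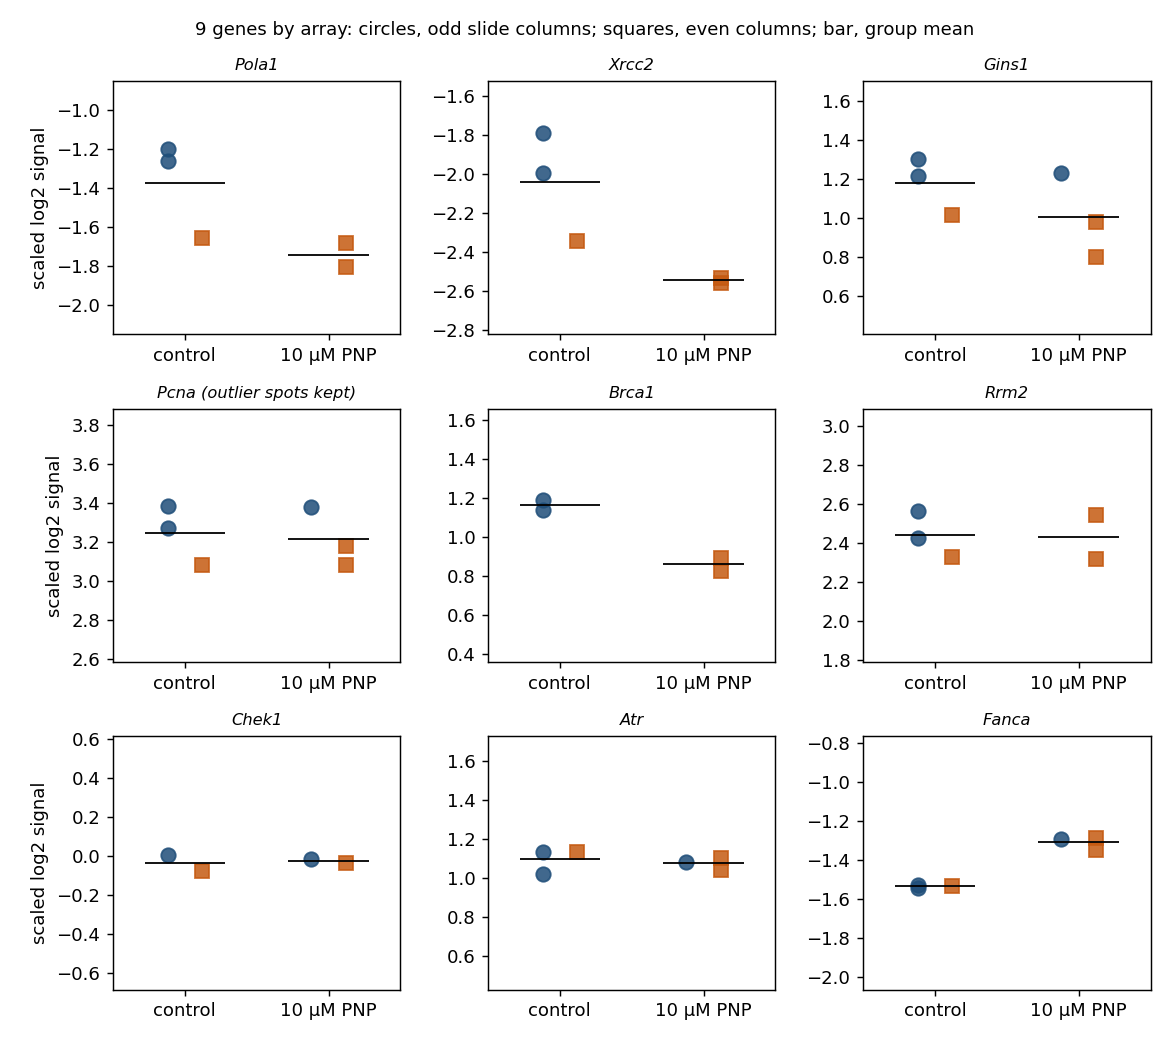
Scaled log2 signal of 9 genes on each array (vertical axis, the same span in each panel), by group, with circles for odd and squares for even slide columns and a bar at the group mean; arrays left out for outlier marks are not drawn, except for Pcna, which is drawn with all spots kept. In Pola1 and Xrcc2 the squares of both groups lie below the circles, while Fanca has its 3 PNP points, from -1.35 to -1.29, above its controls in both kinds of column.

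Of the mismatch repair genes, Msh6, which recognises mispaired bases, gave 2.29, 2.09 and 2.18 on the controls and 2.19, 2.05 and 1.93 on PNP 1, 2 and 3. The groups overlapped through PNP 1, and the difference was -0.13 (SE 0.11, adjusted p = 0.916, limma). The exonuclease Exo1 had a difference of -0.18 (SE 0.20), with PNP 1 at 0.15 and PNP 2 at 0.84 on either side of the controls. Atr, the kinase of stalled forks, gave 1.13, 1.13 and 1.02 on the controls and 1.10, 1.08 and 1.04 on the PNP arrays. All PNP values lay inside the control range, and the difference was -0.02 with a 95% interval from -0.23 to 0.19. Chek1, its main target kinase, gave 0.01 and -0.08 on controls 1 and 2 and -0.04 and -0.02 on PNP 1 and PNP 2, a difference of 0.01 (SE 0.12). Its PNP values also lay between its controls. With the marked spots kept, at -0.10 on control 3 and -0.34 on PNP 3, PNP 3 lay below all controls. The difference was then -0.07 (SE 0.11). The second probe of Chek1, with all spots kept, gave -0.66, -1.01 and -0.40 on the controls and -1.71, -0.93 and -1.12 on PNP 1, 2 and 3, a difference of -0.57, with PNP 2 inside the control range and the other PNP arrays below it.

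Atm, the kinase of double-strand breaks, gave -0.77, -0.85 and -0.92 on the controls and -0.86 and -0.97 on PNP 1 and PNP 2. The groups overlapped, with a difference of -0.07 (SE 0.11, adjusted p = 0.951, limma). Chek2, the kinase that Atm activates, had a difference of -0.02 (SE 0.11). Parp1, which senses strand breaks, gave 0.43 and 0.48 on controls 1 and 2 and 0.30 and 0.56 on PNP 1 and PNP 2. The controls lay between the PNP arrays, for a difference of -0.03 (SE 0.14, adjusted p = 0.982, limma).

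Read by slide column, the same values separated the arrays in more genes than by treatment. In a fit with treatment and column, 34 of the 40 genes that could be fitted were lower in even columns, with a median of -0.16 against -0.0013 over all genes. None passed the test for the column term (0 of 40 at an adjusted p below 0.05, against 0.145% of all genes, limma), and 7 of 40 were lower at an unadjusted p below 0.05, against 5.76% of all genes. The count of 7 was 0 of 40 on arrays scaled on their medians and 5 of 40 after quantile normalization. In the authors' values it was 4 of 42, and with outlier spots kept 9 of 50. It was 3 of 40 without control 1, 7 of 35 without control 2 and 2 of 39 without control 3. Of 40 genes, it was 5 without PNP 1, 3 without PNP 2 (with a median of -0.08) and 2 without PNP 3. Shares over all genes at this threshold were not taken for these alternatives, so these counts cannot be set against all genes. The share of all genes lower in even columns moved between them, from 40.6% on median-scaled arrays to 57.1% without PNP 2, against 50.4% in the main fit. The 7 genes were Pola1, Pole, Lig1, Gins1, Gins2, Gins4 and Xrcc2, with even minus odd differences from -0.26 for Gins4 to -0.45 (SE 0.16, adjusted p = 0.321, limma) for Xrcc2. Even-column values lay wholly below odd-column values in 17 of the 42 genes (8.64% of all genes) and wholly above in 2, Orc4 and Chek2 (11.7% of all genes). With all spots kept, 45 of the 50 genes were lower in even columns and 17 of 50 lay wholly below (7.79% of all genes). Those 17 genes included 4 of the 11 with an E2F-type match and 9 of the 30 with a promoter window and no match. The odd and even split was chosen with these values known and describes the arrays.

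**Figure D3:**
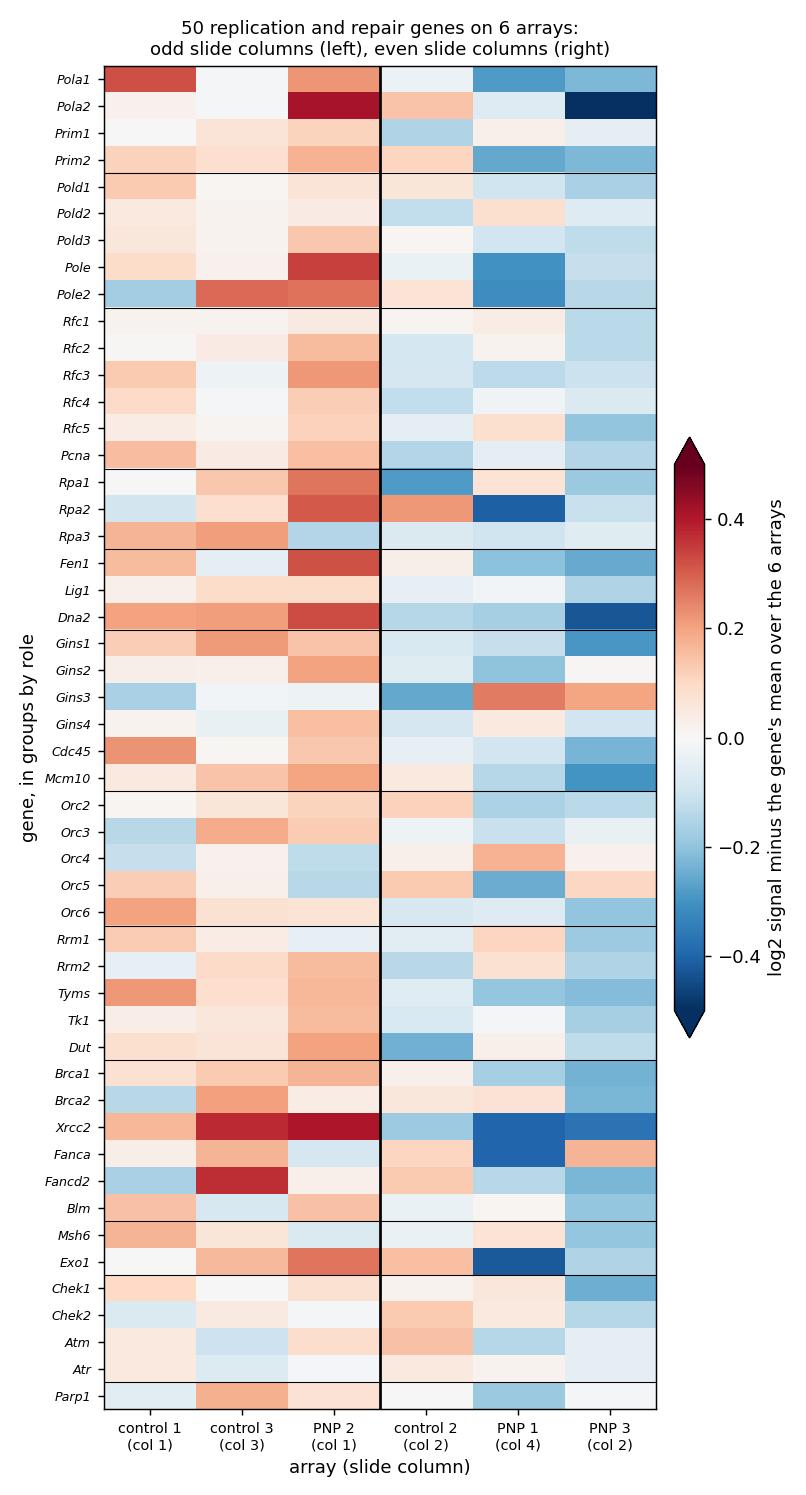
Log2 signal of each of the 50 genes (rows, grouped by role) minus the gene's mean over the 6 arrays (columns, named by group and slide column), with all spots kept; red is above and blue below the gene's mean. The 3 odd-column arrays on the left are mostly red and the 3 even-column arrays on the right mostly blue, with PNP 2 on the red side and 45 of 50 genes lower in even columns.

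The groups of the fork differed in how closely they kept this order. All tested genes of polymerase alpha and primase, polymerases delta and epsilon, the clamp loader, helicase activation and nucleotide supply were lower in even columns. The medians of these 5 groups ran from -0.12 for the polymerases delta and epsilon to -0.26 for helicase activation. Also lower were 2 of 2 tested genes of Okazaki fragment processing, 2 of 2 of mismatch repair and resection, and Parp1. Of recombination and crosslink repair, 4 of the 5 genes that could be fitted were lower, with a median of -0.04. Of the 4 checkpoint kinases only Chek1 was lower in even columns, at -0.05 (SE 0.13), and the group's median was 0.03. Chek2, Atm and Atr were at 0.11 (SE 0.12), 0.04 (SE 0.12) and 0.03 (SE 0.10). With all spots kept, Chek1 was at -0.10 (SE 0.12) and Atm, on a brighter probe, at -0.0047 (SE 0.12), while Chek2 and Atr stayed higher in even columns. Of the 4 origin recognition genes that could be fitted, Orc2 and Orc6 were lower and Orc3 and Orc4 higher. The value of Orc3, 0.09 (SE 0.19), had its array of control 3 as the only odd-column array. With all spots kept, a brighter probe stood for Orc3 and its column difference was -0.13 (SE 0.12). That of Orc4 was then 0.15 (SE 0.11). No test set these groups against each other. For single probes, the column difference was the plain mean of even minus that of odd arrays, with all spots kept and treatment not fitted. Among the 21 genes with several probes, its sign was shared by all probes of 17 genes, and that of the PNP difference by all probes of 14. Over all 75 probes, 67 were lower in even columns and 61 were lower with PNP.

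With slide column as a block, the PNP difference had a median of -0.02 over the 40 genes and was negative in 24 of them, and 0 of 40 passed the test (0.00763% of all genes, 1 of 13100, limma). Within even columns, PNP 1 and PNP 3 against control 2 gave a negative difference in 31 of 40 genes, against 34.6% of all genes. The median was -0.07, against 0.08 over all genes. Within odd columns, PNP 2 against controls 1 and 3 gave a negative difference in 10 of 35 genes, against 47.8% of all genes. The median was 0.08, against 0.0096 over all genes. Of the 35 genes with both values, 20 were negative in even and positive in odd columns (57.1%, against 18.9% of all genes). Among these, Pole had -0.17 in even and 0.29 in odd columns, and Pola2 had -0.43 and 0.41. In both kinds of column 7 genes were negative (20%, against 15.5% of all genes) and 5 positive (against 4147 of 12381 over all genes). The other 3 were positive in even and negative in odd columns (against 3978 of 12381). Each of these within-column values rests on a single control or a single PNP array, and the difference between columns was not tested.

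Genes of neighbouring processes, from lists chosen by name, were read in the same fit. Of other fork genes, 13 of 23 tested had a negative difference and 1 had an unadjusted p below 0.05, the histone chaperone Asf1a at -0.34 (SE 0.09, adjusted p = 0.740, limma). Of other nucleotide genes the counts were 13 of 19 and 1, Dtymk (thymidylate kinase) at -0.27 (SE 0.11), and of other repair genes 27 of 49 and 2, which were 1 in each direction, the lower being the helicase Brip1 at -0.41 (SE 0.17). None of these lists held a gene that passed the adjusted threshold, and neither did those of origin licensing (5 of 10 negative) and mitosis (7 of 18 negative). At an unadjusted p below 0.05 (limma), 2 of 18 mitosis genes were higher and 1 lower, and 0 of 10 licensing genes changed. Over all genes, 5.02% were higher and 1.49% lower at that threshold. The second gene named for fork and nucleotide genes was Mms22l at 0.33 and Dctd at -0.26. For licensing the named genes were Orc1 at -0.33 and Cdc6 at -0.21, and for mitosis Kif20a at 0.28 and Anln at -0.41. Lower in even columns were 10 of 10 licensing genes, 17 of 18 mitosis genes, 19 of 23 other fork genes, 14 of 19 other nucleotide genes and 27 of 49 other repair genes, against 50.4% of all genes.

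The array medians place these lists side by side. Over the 25 genes of the set measured on all 6 arrays, the median deviation from each gene's own mean was 0.06, -0.05 and 0.02 on controls 1, 2 and 3 and -0.02, 0.14 and -0.16 on PNP 1, 2 and 3. The highest and the lowest array were thus both PNP arrays, and the within-group SD of these medians was 0.11. Mitosis genes (15 measured on all arrays) had 0.03, -0.15 and 0.06 on the controls and 0.02, 0.17 and -0.06 on the PNP arrays, so PNP 2 was their highest and control 2 their lowest.

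**Figure D4:**
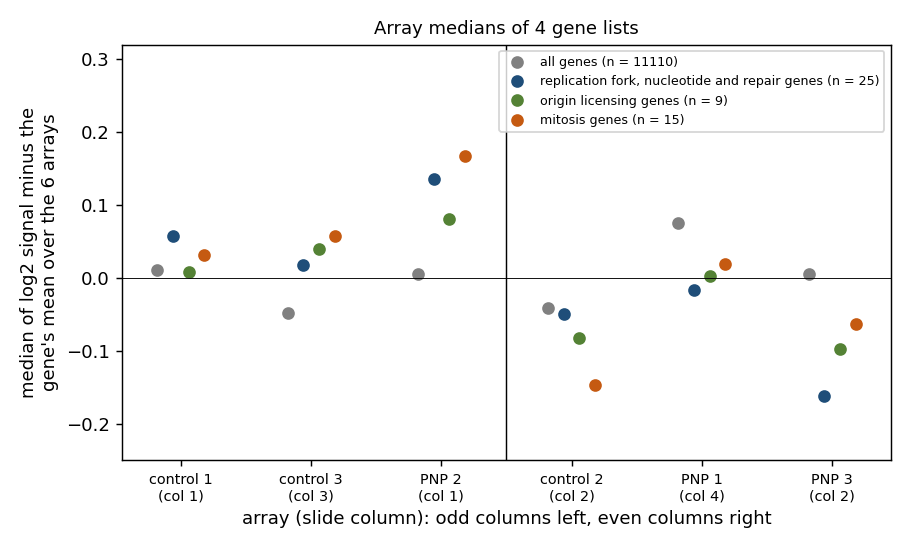
Median, over the genes of a list that were measured on all 6 arrays, of log2 signal minus the gene's own mean (vertical axis), for each array (horizontal axis, odd slide columns on the left, even on the right), with 1 colour per list. The replication, licensing and mitosis lists are all highest on PNP 2 (0.14 for the replication, nucleotide and repair genes) and lower on even-column arrays, while all genes together are highest on PNP 1 at 0.08.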

How the data were processed

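Total RNA of 6 samples was amplified, labelled and hybridised to 1-colour arrays, per the labels. The deposited scanner files hold intensity values, made with Agilent Feature Extraction 11.5.1.1 per the file headers (10.7 per the submitters' processing notes). They hold red-channel columns although the labels name Cy3, so the dye is unsettled. A deposited table of the authors holds log2 values of the same arrays on a common scale (median 8.28 in each column, uncentred, same direction as the scanner signal) and served as an alternative.

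The processed signal was log2-transformed and scaled by subtracting the 75th percentile of the array's non-control spots. Outlier spots (non-uniform, or population outliers) were removed and the remaining spots of 1 probe averaged. Probes entered the test when all 3 arrays of either group read well above background and each group kept at least 2 values, and the brightest tested probe stood for a gene. Probes were named through transcript accessions in a RefSeq table of assembly GRCm38.p6 (33767 of 56605 named). PNP minus control was fitted with limma 3.58.1 in R 4.3.3 (lmFit, eBayes, two-sided), adjusted by Benjamini-Hochberg over 13138 genes at 0.05. Of these, 2028 lacked 1 or more arrays. A second fit added slide column (odd or even). A gene whose missing arrays left a term without an estimate was dropped from it. Array measures were compared by exact permutation.

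The 50 genes, the other lists and the column split were chosen with earlier results of these data known. Values on each array are given for the 2 genes of smallest p in each role group with 3 or more tested genes (1 in smaller groups), the 5 of largest column difference, and Pola1, Pcna, Rrm2, Tyms, Brca1, Chek1 and Atr. Gins3 was added after its values were seen. For other lists the 2 genes of smallest p are named, except 1 that is not reported here. Scripts were tested on simulated data. Same-numbered samples of the groups did not deviate together (correlations -0.31, -0.22 and -0.03), so the numbers were not taken as pairs. Normexp correction, an alternative, used median signals, since the files hold no mean signal.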

Additional observations from a re-analysis of the deposited data

How the results depend on the processing

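No gene of the set passed the adjusted threshold under any alternative run: scaling on each array's median, quantile normalization, normexp background, the authors' normalized values, no filter on dim probes, outlier spots kept, the mean of a gene's probes, slide column as a block, the replicate block, and leaving out each array. The count over all genes was 1 with slide column as a block and 1 with outlier spots kept and that block (the pair chosen after seeing the data), and it ranged from 0 to 1 when single arrays were left out, with 1 without control 2 and 1 without PNP 2. The median difference of the set was negative throughout, from -0.15 without PNP 2 and -0.12 with median scaling to -0.01 without PNP 3. The number of genes with a negative difference ranged from 24 of 42 without PNP 3 to 41 of 42 with median scaling. Fanca reversed to -0.20 with outlier spots kept, and to -0.20 with the column block added, because a brighter probe then stood for it. With the replicate block, 0 of 38 genes passed, the median was -0.07 and 31 were negative, while genes of all kinds with an unadjusted p below 0.05 numbered 604 in place of 856. The column term was called for 0 genes of the set in each of the 10 alternatives run for it. The 3 arrays per group limit the precision: the median 95% interval was ± 0.29.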
